A study of Homo sapiens with 24 samples.

Results

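The 10 genes described here encode mitotic kinases of the centrosome and the spindle (PLK1, AURKA and NEK2), kinases of the spindle assembly checkpoint (BUB1, BUB1B and TTK) and the chromosomal passenger complex (AURKB, INCENP, CDCA8 and BIRC5). Their rows were taken by symbol. The genes were chosen with earlier results of these data known, and NEK2 was among the candidates that the paper drew from the same RNA-Seq. The counts of calls below are therefore not those of a set chosen without the data. All 10 were found in each of the 4 deposited tables. These listed 19283 genes for Hs578T, 18248 for HCC70, 60651 for the KIF20A depletion and 23792 for the KIF20A overexpression. Poly-A RNA was sequenced in 24 libraries, 3 for each of 8 conditions, labelled as 3 established triple-negative breast cancer (TNBC) cell lines. Wild-type Hs578T and HCC70 cells were sorted into breast cancer stem-like cells (BCSCs, CD24-CD44+ and ALDH+) and non-BCSCs, which had neither phenotype. MDA-MB-231 cells carried control sgRNA (sgCtrl) or KIF20A sgRNA (sg1) in one experiment, and empty vector (EV) in the other. The libraries labelled KIF20A overexpression (OE) carry the same line in their labels, but their marker genes, given below, leave it in doubt. The sgRNA cells were selected with puromycin and are labelled a knockdown. Each sorted line and each MDA-MB-231 experiment had a deposited table of its own and is taken here as a batch of its own. The methods name biological triplicates, and no label says whether these were separate sorts or cultures, so the p-values measure the spread between these libraries.

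Cells in G2 and mitosis make most of the mRNA of these genes, so their level in a bulk sample moves with the share of cells in those phases. PLK1 drives mitotic entry and centrosome maturation, AURKA builds the spindle poles and activates PLK1 together with its cofactor BORA, and NEK2 separates the centrosomes. TTK and BUB1 start the checkpoint signal at unattached kinetochores, and BUBR1, the product of BUB1B, is part of the complex that restrains the anaphase-promoting complex. In the passenger complex AURKB is the kinase, INCENP the scaffold that activates it, and borealin (CDCA8) and survivin (BIRC5) bring the complex to the centromere. KIF20A, the motor that the study manipulated, carries this complex from the centromere to the spindle midzone in anaphase. A bulk measurement cannot tell more dividing cells from more RNA per dividing cell.

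Promoter sequence is shown because these genes are known to share a cell cycle promoter design. The MuvB complexes bind the cell cycle genes homology region (CHR), here searched as TTTGAA, and NF-Y binds the CCAAT box, here searched as CCAAT, each on both strands. Entries of the RefSeq promoter table (GRCh38.p14) were found for 7 of the 10 genes, and AURKA, TTK and BIRC5 were not matched. Below are the 150 bases before the RefSeq start of 4 of them (the first 145 of these for CDCA8), 5′ to 3′ on the gene's strand, with the matches in capitals (a CCAAT box on the other strand reads ATTGG). PLK1, INCENP and CDCA8 hold both motifs, and NEK2 holds CCAAT boxes alone.
PLK1, chr16:23678739-23678888, plus strand: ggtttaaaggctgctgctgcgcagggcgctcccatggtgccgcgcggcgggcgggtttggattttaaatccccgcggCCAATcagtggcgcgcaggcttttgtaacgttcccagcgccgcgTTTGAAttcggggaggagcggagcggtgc
INCENP, chr11:62123861-62124010, plus strand: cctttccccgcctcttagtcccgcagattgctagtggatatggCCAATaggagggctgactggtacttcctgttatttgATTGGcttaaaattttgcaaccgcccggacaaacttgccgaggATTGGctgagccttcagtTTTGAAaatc
CDCA8, chr1:37692366-37692510, plus strand: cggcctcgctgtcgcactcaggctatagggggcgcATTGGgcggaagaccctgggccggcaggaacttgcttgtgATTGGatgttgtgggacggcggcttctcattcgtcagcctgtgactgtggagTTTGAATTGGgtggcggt
NEK2, chr1:211675622-211675771, minus strand: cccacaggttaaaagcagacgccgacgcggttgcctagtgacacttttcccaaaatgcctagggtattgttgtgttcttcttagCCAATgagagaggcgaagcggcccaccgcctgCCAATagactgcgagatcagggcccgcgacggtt

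In PLK1 the CCAAT box began 73 bases and the CHR match 29 bases before the start. INCENP had 3 CCAAT boxes and a CHR match that began 10 bases before the start. CDCA8 also had 3 CCAAT boxes, the nearest of which shared its first base with the last base of the CHR match, and a GENCODE 44 start of CDCA8 lay 35 bases upstream of the RefSeq start used here. For PLK1 the first GENCODE 44 start lay 1233 bases upstream of the RefSeq start, so the printed bases lie within the span of the gene in GENCODE 44. BUB1B, not printed, had a CHR match at the same distance as CDCA8, 23 bases before the RefSeq start, and no CCAAT box. The first GENCODE 44 starts of BUB1B and INCENP lay 46 and 13 bases upstream of their RefSeq starts. The CHR matches of both genes thus lie past those first starts. In BUB1 the related letters TTCGAA lay just past the start and 2 CCAAT boxes upstream, and these letters were present in 1.45% of all promoters of the table. In windows of 300 bases, from 250 before the start, the CHR letters were present for 4 of the 7 genes and 15.4% of the 27305 genes in the table. For AURKB the first GENCODE 44 start lay 375 bases upstream of the RefSeq start, so its window did not reach the bases before that first start. A CCAAT box was present for 6 of the 7, against 35.7% of all, and at least 2 for 4 of the 7, against 11.3%. These are counts of letters, without a test, and do not show binding.

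**Figure D1:**
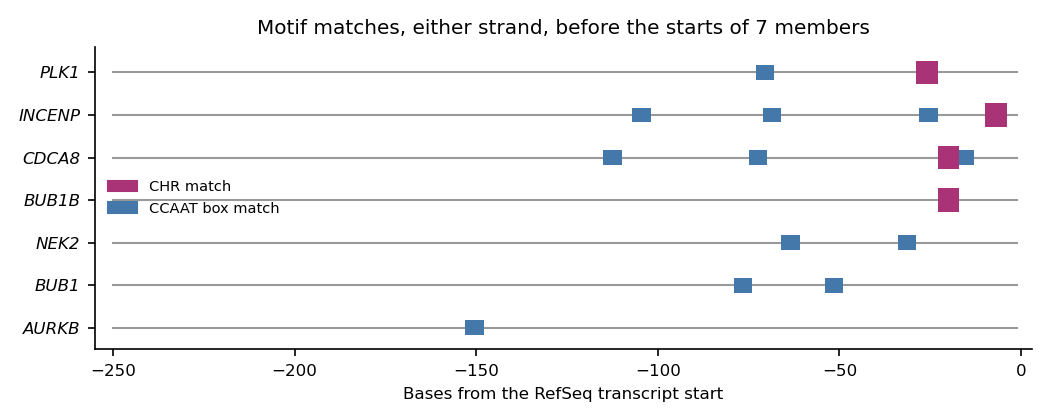
Matches of the CHR letters (red) and the CCAAT box (blue) on either strand, in bases from the RefSeq transcript start, for the 7 genes with a promoter entry. CHR matches lie within 29 bases of the start in PLK1, INCENP, CDCA8 and BUB1B, and CCAAT boxes lie in 6 of the 7 genes.

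Library depth, from whole reads recovered from the deposited values, ran from 28189500 to 33715701 for Hs578T and from 24681218 to 33559417 for HCC70. The sgRNA libraries held 41424338 to 51018667 reads and the overexpression libraries 15971297 to 22182293. Each of the 10 genes had at least 537 reads in every library, so none was near the limit of detection. Gene coordinates below are those of GENCODE 44 on GRCh38. Marker genes set the sorted lines apart in part. In non-BCSCs vimentin was at 3699 TPM in Hs578T and 6.23 TPM in HCC70, and E-cadherin at 0.0231 and 484.8 TPM. KRT5 was at 4286 TPM in HCC70 and was not listed for Hs578T. The mesenchymal marker S100A4 went the other way, at 158.8 TPM in Hs578T and 237.5 TPM in HCC70. The epithelial marker KRT18 was high in both, at 321.9 and 375.9 TPM. The libraries labelled KIF20A OE stood apart from EV in far more than KIF20A. CD44 was at 523 to 788 CPM in EV and at 0.125 to 1.23 CPM in the libraries labelled OE, and IRS4 and CDKN2A were listed at 0 in all EV libraries and at mean levels of 1571 and 322 CPM in the libraries labelled OE. The sgRNA experiment in MDA-MB-231 was like EV in this, with CD44 at 1241 to 1560 units and IRS4 and CDKN2A at 0 in all 6 libraries. Whether the libraries labelled OE are MDA-MB-231 cells is therefore in doubt, and in every comparison with EV a difference of cell line and an effect of KIF20A cannot be told apart. All 3 were alike in this, so no comparison without them was possible.

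BCSCs of Hs578T had more mRNA of the mitotic kinases and the passenger complex than non-BCSCs, and the rise was largest in the centrosome kinases. Of the 10 genes, 8 were called higher, which means a Benjamini-Hochberg adjusted p under 0.05 by limma on log2(TPM + 1) over all genes tested, and 0 were called lower. Over all 13324 genes tested, 2.90% were called higher. The 2 others, AURKB and TTK, were also above non-BCSCs on average. The groups did not overlap for 9 of the 10 genes, all higher in BCSCs, while this was so for 12.0% of all genes.

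Among the centrosome and spindle kinases, PLK1 (chr16:23677656-23690367) was at 84.7, 84.1 and 87.1 TPM in the 3 non-BCSC libraries of Hs578T and at 110.8, 113.8 and 116.9 TPM in the BCSC libraries. Every BCSC library was above every non-BCSC library, and the mean was 1.33 times as high (log2 fold change 0.41 ± 0.042, SE; limma adjusted p = 0.00195). AURKA (chr20:56369389-56392337) rose from 98.7, 96.9 and 96.1 TPM to 131, 122 and 135 TPM. Its log2 fold change was 0.41 ± 0.048 (SE, limma adjusted p = 0.00332), as large as that of PLK1. NEK2 (chr1:211658657-211675630) rose the most of the 10 in this line, from 47.8 ± 2.0 to 66.7 ± 1.4 TPM (SD, n = 3), a ratio of 1.40, with a log2 fold change of 0.47 ± 0.047 (SE, limma adjusted p = 0.00195).

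The differences of the checkpoint kinases were smaller. BUB1 (chr2:110637528-110678063) was at 92.4, 93.7 and 87.0 TPM in non-BCSCs and at 109.9, 105.9 and 109.9 TPM in BCSCs of Hs578T, a log2 fold change of 0.25 ± 0.045 (SE, limma adjusted p = 0.0178). BUB1B (chr15:40161023-40221123) went from 86.2 ± 5.1 to 105 ± 3.1 TPM (SD, n = 3), with a log2 fold change of 0.28 (limma adjusted p = 0.0231). TTK (chr6:80003887-80042527) was at 87.1, 86.4 and 74.5 TPM in non-BCSCs and at 99.4, 95.9 and 101.3 TPM in BCSCs. Its groups did not overlap, and its log2 fold change of 0.26 ± 0.066 (SE) had a limma adjusted p of 0.0589. Non-BCSC replicate 3 was the low library of TTK, and edgeR and DESeq2 on recovered reads called the gene.

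In the passenger complex of Hs578T the scaffold and both targeting subunits rose by similar amounts. INCENP (chr11:62123998-62153169) went from 52.2 ± 2.3 to 62.5 ± 2.6 TPM, CDCA8 (chr1:37692481-37709719) from 75.3 ± 2.4 to 88.5 ± 2.7 TPM and BIRC5 (chr17:78214186-78225636) from 157.6 ± 5.3 to 185.1 ± 3.3 TPM (SD, n = 3). Their log2 fold changes were 0.26, 0.23 and 0.23, with limma adjusted p of 0.0267, 0.0243 and 0.0197. AURKB (chr17:8204733-8210600), the kinase of the complex, was at 99.0, 107.6 and 112.3 TPM in non-BCSCs and at 122.2, 111.4 and 130.3 TPM in BCSCs. BCSC replicate 2 lay below the highest non-BCSC library, and the log2 fold change of 0.19 ± 0.070 (SE) did not pass (limma adjusted p = 0.165), though DESeq2 on recovered reads called it (adjusted p = 0.0339). Calls on the smaller changes depended on which library was left out. Without BCSC replicate 1 or without non-BCSC replicate 2, 3 of the 10 genes passed, and without non-BCSC replicate 1, 4 did, while without non-BCSC replicate 3, BCSC replicate 2 or BCSC replicate 3 it was 8, 7 and 6. PLK1, AURKA and NEK2 were called each time. Scaling bore on the background too, since 40.5% of all called genes of Hs578T were higher on the deposited scale and 52.0% when rescaled by the median of ratios.

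In HCC70 the difference was larger, and PLK1 led it. Of the 10 genes, 9 were called higher in BCSCs and 0 lower, against 2.28% of 13218 genes called higher, and TTK alone did not pass. No BCSC library overlapped a non-BCSC library for any of the 10 genes, all higher in BCSCs, while 20.9% of all genes were higher without overlap.

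PLK1 was at 87.2, 97.0 and 90.9 TPM in non-BCSCs of HCC70 and at 161.2, 163.8 and 158.5 TPM in BCSCs, 1.76 times as high by the means. Its log2 fold change was 0.81 ± 0.056 (SE, limma adjusted p = 0.00157). AURKA had the lowest level of the 10 in this line and rose almost as much, from 37.7, 34.5 and 37.0 TPM to 63.5, 61.4 and 63.1 TPM (log2 fold change 0.77 ± 0.055, SE; limma adjusted p = 0.00178). NEK2 went from 62.0 ± 3.8 to 95.2 ± 2.8 TPM (SD, n = 3), or by 0.61 on the log2 scale (limma adjusted p = 0.00566). These 3 centrosome kinases were called in this line under every setting tried.

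Of the checkpoint kinases in HCC70, BUB1 went from 68.5, 66.8 and 66.6 TPM to 104.4, 101.2 and 105.7 TPM, a log2 fold change of 0.62 ± 0.048 (SE, limma adjusted p = 0.00216). BUB1B rose less, from 63.3 ± 3.2 to 82.6 ± 3.1 TPM (SD, n = 3), with a log2 fold change of 0.38 (limma adjusted p = 0.0233). TTK was at 73.8, 65.5 and 64.9 TPM in non-BCSCs and at 84.4, 78.9 and 98.1 TPM in BCSCs. It had the smallest log2 fold change of the 10, 0.35 ± 0.090 (SE), and the largest SE, and did not pass by limma (adjusted p = 0.0776), though it did by edgeR and DESeq2 on recovered reads.

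All 4 passenger complex genes rose in HCC70. CDCA8 was at 63.1, 65.9 and 71.1 TPM in non-BCSCs and at 105.8, 104.4 and 107.7 TPM in BCSCs, a ratio of 1.59 and a log2 fold change of 0.66 ± 0.058 (SE, limma adjusted p = 0.00385). AURKB was at 51.5, 59.8 and 59.6 TPM and then at 84.5, 87.5 and 79.9 TPM, a log2 fold change of 0.56 ± 0.073 (SE, limma adjusted p = 0.0121). INCENP and BIRC5 rose by 0.46 and 0.42 on the log2 scale, from 53.2 ± 0.50 to 73.6 ± 2.1 TPM and from 65.2 ± 2.3 to 87.9 ± 0.69 TPM (SD, n = 3; limma adjusted p = 0.00600 and 0.00855). Without BCSC replicate 1, the calls fell from 9 to 5 of the 10 genes, which were PLK1, AURKA, NEK2, BUB1 and CDCA8. Of all called genes of HCC70, 80.5% were higher on the deposited scale, against 61.7% by edgeR on recovered reads.

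**Figure D2:**
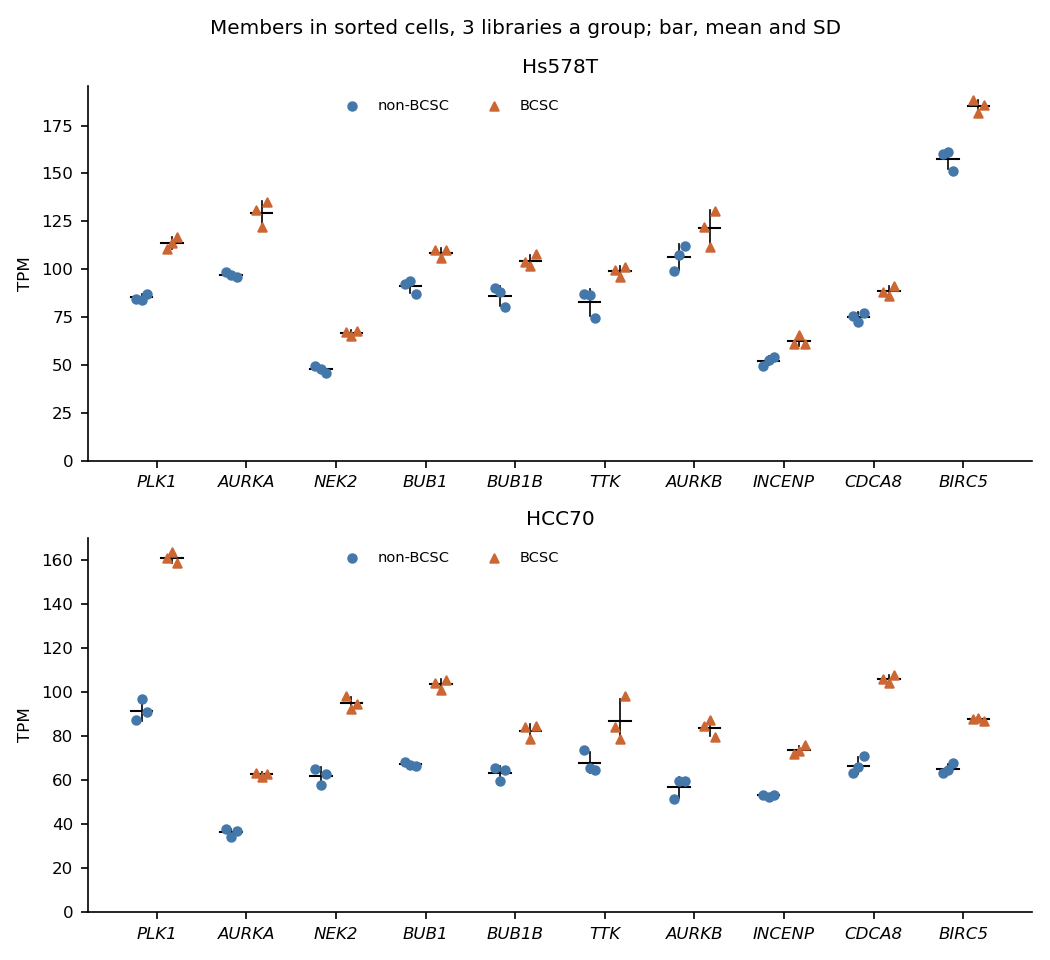
TPM of the 10 genes in each library of Hs578T (top) and HCC70 (bottom), with non-BCSCs as circles, BCSCs as triangles, and the mean and SD of 3 libraries as bars. The BCSC libraries lie above the non-BCSC libraries for every gene but AURKB in Hs578T, and PLK1 in HCC70 shows the widest gap, from 91.7 to 161.2 TPM on average.

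The difference between BCSCs and non-BCSCs was larger in HCC70 than in Hs578T for all 10 genes, and a test of the difference between the lines passed for 4 of them. On the log2 scale the BCSC effect was larger in HCC70 by 0.40 ± 0.066 for PLK1, by 0.36 ± 0.069 for AURKA, by 0.37 ± 0.060 for BUB1 and by 0.43 ± 0.071 for CDCA8 (SE; limma interaction over 12 sorted libraries, adjusted p = 0.00618, 0.0129, 0.00618 and 0.00603). Of 11668 genes tested, 5.62% were called with a larger effect in HCC70. CDCA8 had the largest value, a log2 fold change of 0.66 in HCC70 and of 0.23 in Hs578T. For AURKB the difference was 0.37 ± 0.106 (SE, limma adjusted p = 0.0585), and for TTK, BUB1B and NEK2 it was 0.09, 0.10 and 0.14. INCENP and BIRC5 lay between, at 0.20 and 0.19, and none of these 6 genes passed. Of the 26 kinase partners 4 passed, PRC1, KIF20A, CDC20 and KIF2C, larger in HCC70 by 0.30, 0.35, 0.38 and 0.49, and of the S phase genes 0 of 15. Line, batch and table cannot be told apart in this test, and 79.0% of all calls were larger in HCC70 on the deposited scale against 54.8% when rescaled by the median of ratios, under which the same 4 genes passed.

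Because TPM is divided by transcript length, levels can also be ordered between genes within a line. In Hs578T non-BCSCs BIRC5 was the highest of the 10, at 157.6 TPM, followed by AURKB at 106.3 TPM and AURKA at 97.2 TPM, and each of these stood apart from the next over the 3 libraries. From BUB1 at 91.05 TPM down to CDCA8 at 75.3 TPM, neighbours in the order overlapped, and INCENP and NEK2 were lowest, at 52.2 and 47.8 TPM. In HCC70 non-BCSCs PLK1 was highest, at 91.7 TPM, and AURKA lowest, at 36.4 TPM, and both stood apart from their neighbours. The other 8 genes lay between 53.2 and 68.1 TPM there, each overlapping the next. In HCC70 BCSCs PLK1 and AURKA kept the first and the last place, at 161.2 and 62.7 TPM.

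The highest of the 4 passenger complex genes was 3.02 and 2.96 times the lowest in non-BCSCs and BCSCs of Hs578T, and 1.25 and 1.44 times in HCC70, where CDCA8 was the highest. Ratios within a library were taken for 3 pairs, chosen after their values were seen, in 4 comparisons, and the lowest p among these 12 tests, 0.1, became 0.24 after Benjamini-Hochberg adjustment. Averaged over libraries, BIRC5 mRNA was 3.03 times the level of INCENP in Hs578T non-BCSCs and 2.97 times in BCSCs, but 1.23 and 1.19 times in HCC70. The fractions overlapped in this ratio in both lines (exact permutation test over libraries, two-sided, p = 0.6 in Hs578T and p = 0.4 in HCC70). With 3 against 3 libraries the smallest p is 0.1, so these tests could not pass 0.05 and show neither a change nor its absence. The ratio of PLK1 to TTK was 1.18, 1.48 and 1.40 in HCC70 non-BCSCs and 1.91, 2.08 and 1.62 in BCSCs, so that the fractions did not overlap (exact permutation test, two-sided, p = 0.1). In Hs578T the same ratio overlapped between fractions, at 0.973, 0.973 and 1.17 against 1.12, 1.19 and 1.15 (exact permutation test, two-sided, p = 0.3). AURKA relative to AURKB was higher in all Hs578T BCSC libraries, at 1.04 to 1.10, than in non-BCSCs, at 0.855 to 0.997 (exact permutation test, two-sided, p = 0.1). In HCC70 this ratio overlapped, at 0.577 to 0.734 in non-BCSCs and 0.702 to 0.790 in BCSCs (exact permutation test, two-sided, p = 0.2).

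Other genes of the pathway were read from lists, without a set test. Of 26 activators, substrates and binding partners of these kinases, 14 were called higher and 0 lower in each sorted line, with a median log2 fold change of 0.26 in Hs578T and 0.37 in HCC70 (medians of all genes, -0.01 and 0.02). The partner that rose most in both lines was KIF20A itself, at 216.9 ± 2.5 and 296.5 ± 25.6 TPM in Hs578T (log2 fold change 0.45, limma adjusted p = 0.00718) and at 71.4 ± 2.7 and 124.8 ± 3.5 TPM in HCC70 (0.80, limma adjusted p = 0.00157; SD, n = 3). TPX2, the activator of AURKA at the spindle, rose by 0.37 and 0.55 on the log2 scale (limma adjusted p = 0.00455 and 0.00594). Of the other Polo-like, Aurora and NEK kinases, which include PLK2, PLK3 and NEK7, 0 of 12 tested were called in Hs578T and 0 of 10 in HCC70.

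Genes of the G2/M phase moved with the members in both lines. In Hs578T 14 of 15 were called higher, with a median log2 fold change of 0.32, and in HCC70 13 of 15, with a median of 0.51. The largest rise was in CCNB1, the cyclin that activates CDK1 for mitotic entry, by 0.47 on the log2 scale in Hs578T and by 0.78 in HCC70. Summed over the list, G2/M genes reached 2637 to 2885 TPM in non-BCSCs and 3361 to 3580 TPM in BCSCs of Hs578T, and 1798 to 1975 TPM against 2619 to 2849 TPM in HCC70. S phase genes, such as the MCM helicase subunits, gave 0 of 15 calls in either line, with medians of 0.06 and -0.08. The part of a shift in cell cycle phase in the members' rise was not tested. FOXM1, the transcription factor that activates G2/M genes, was the 1 gene called of 10 factors of mitotic transcription in each line, higher by 0.27 in Hs578T and by 0.53 in HCC70 on the log2 scale.

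Over the 12 sorted libraries, centred within each line, the genes whose pattern was most like the mean of the 10 were KPNA2, PSRC1, GPSM2, KNSTRN and CCNB1, with Pearson's r of 0.991 to 0.993 among 11658 genes. Among the members, r with the mean of the other 9 ran from 0.846 for TTK to 0.995 for AURKA. These correlations describe 12 libraries that fall into BCSCs and non-BCSCs, so they largely repeat that split. Sorting markers were checked alongside. ALDH1A3 mRNA, which encodes an ALDH enzyme, rose from 289.1 ± 8.3 to 706.4 ± 4.3 TPM in Hs578T BCSCs (SD, n = 3), while CD24 and CD44 mRNA differed by -0.05 and 0.05 on the log2 scale. In HCC70 ALDH1A3 was at 87.3 ± 3.9 and 98.4 ± 7.2 TPM and ALDH1A1 at 330.6 ± 5.3 and 362.1 ± 7.1 TPM (SD, n = 3), and neither passed (limma adjusted p = 0.179 and 0.164). CD24 of HCC70 was lower by 0.31 on the log2 scale with a limma adjusted p of 0.0543. Of 4 genes listed as stromal and immune markers with enough signal in Hs578T, 3 (DCN, ACTA2 and PDGFRB) were called lower in BCSCs. Over all 13324 genes, 567 were called lower. Of the 7 markers in the list 6 were present for this line. Their sum was at 136.3 to 141.8 TPM in non-BCSCs and 77.7 to 89.8 TPM in BCSCs, with the immune marker PTPRC below 0.2 TPM in every library. What these genes have to do with the members' rise was not tested.

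**Figure D3:**
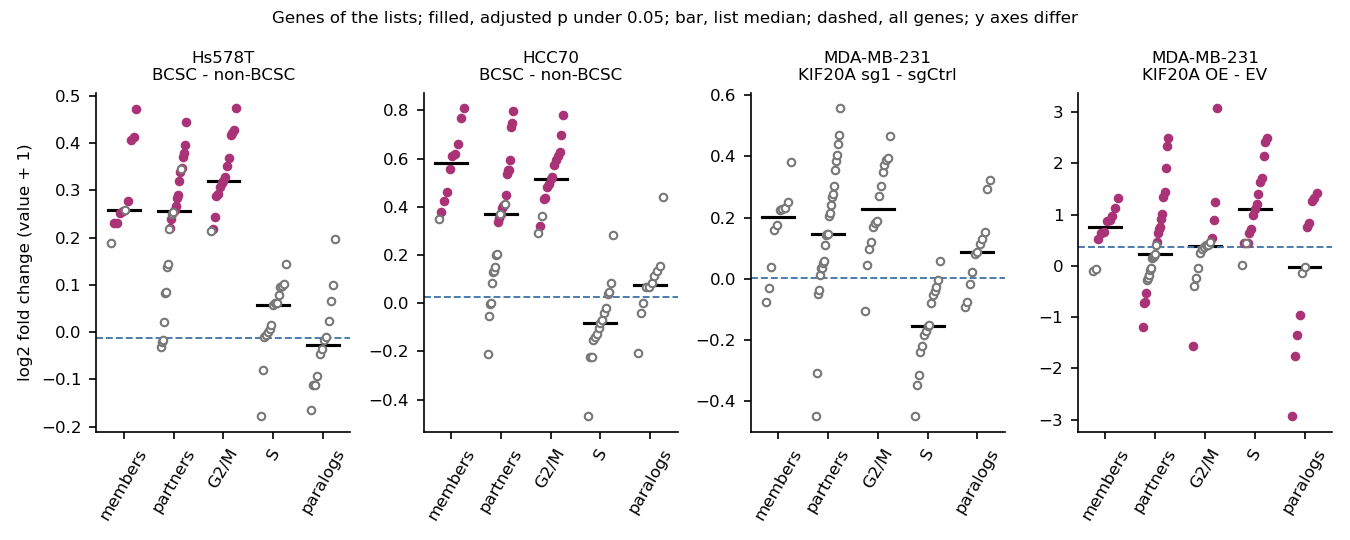
Log2 fold change of each gene of 5 lists (members, partners, G2/M phase, S phase, paralogs) in the 4 comparisons, filled where the limma adjusted p was under 0.05, with the list median as a bar and the median of all genes dashed; the y axes differ. In both sorted lines members, partners and G2/M genes are mostly filled and above 0, while all S phase genes and paralogs are open.

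In MDA-MB-231 cells with KIF20A sgRNA, KIF20A mRNA was at 122.4, 144.8 and 91.1 normalized units, against 153.0, 173.2 and 155.9 in sgCtrl. The groups did not overlap, but the log2 fold change of -0.45 ± 0.161 (SE) did not pass (limma adjusted p = 0.690). The check of the labels by the targeted mRNA is therefore weak. It does not bear on KIF20A protein, which the authors examined by immunoblot in MDA-MB-231 cells with KIF20A sgRNAs. The units are those of the authors' table, reads divided by 1 factor per library and not by length, so they order no genes.

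None of the 10 genes was called between KIF20A sgRNA and sgCtrl, in a comparison that called 0% of 12852 genes higher. By limma 0 genes were called in either direction, with 899 at an unadjusted p under 0.05, while edgeR called 0 and DESeq2 called 11 on recovered reads, with 0 of the 10 genes among them. Without sgCtrl replicate 3, limma called 144 genes, again with 0 of the 10. The groups overlapped for all 10 genes, while 5.73% of all genes were higher and 7.30% lower in the sgRNA libraries without overlap.

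TTK showed the largest difference, at 66.0, 71.0 and 102.4 units in sgCtrl and at 102.6, 119.8 and 87.0 units with KIF20A sgRNA (log2 fold change 0.38 ± 0.177, SE; limma adjusted p = 0.694). sgCtrl replicate 3 lay inside the range of the sgRNA libraries for this gene. PLK1 was at 137.8, 164.1 and 146.3 units in sgCtrl and at 179.5, 203.3 and 147.4 units with sgRNA, a log2 fold change of 0.23 ± 0.141 (SE, limma adjusted p = 0.715). BUB1, NEK2, BUB1B, CDCA8 and AURKA had log2 fold changes of 0.25, 0.23, 0.23, 0.18 and 0.16. In the passenger complex INCENP, BIRC5 and AURKB lay closest to 0, at 0.04, -0.03 and -0.08, and the sign of INCENP and BIRC5 depended on which library was left out.

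The libraries moved together across the genes. KIF20A sgRNA replicate 2 held the highest value of its group for 9 of the 10 genes and replicate 3 the lowest for 9, and sgCtrl replicate 1 held the lowest of its group for 8. The coefficient of variation within a group was 3.01% to 24.7% here, wider than the 0.784% to 11.4% of the sorted cells. G2/M genes had a median log2 fold change of 0.23 and S phase genes of -0.15, and 5 of 15 S phase genes were lower in the sgRNA libraries without overlap, but 0 genes of either list passed. The controls of the experiments are in different units, so their levels cannot be set against each other. BUB1 was at 316.9 ± 50.1 units in sgCtrl and 111.2 ± 24.4 CPM in EV, and AURKA at 239.7 ± 21.1 units and 118.5 ± 42.9 CPM (SD, n = 3). These tables were normalized separately and are not compared by a test.

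The libraries labelled OE, whose cell line is in doubt, had higher calls than EV for 8 of the 10 genes, all but AURKA and CDCA8. These values compare 2 sets of libraries and are not read as an effect of KIF20A. KIF20A itself was at 1348, 269.4 and 896.2 CPM, against 101.1, 142.9 and 123.7 CPM in EV (log2 fold change 2.49 ± 0.508, SE; limma adjusted p = 0.00249). The background was high: of 15265 genes tested, 46.2% were called higher, and 3579 genes were called lower. Without overlap between groups, 48.9% of all genes were higher and 25.2% lower, against 8 higher and 0 lower of the 10. Over all genes the log2 fold change had a median of 0.37, which became 0.03 once libraries were rescaled by the median of ratios, and this moved the share of higher genes among all calls from 66.3% to 50.6%. A count of 8 of 10 therefore has to be read against this shift.

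BIRC5 rose the most, from 89.9, 165.4 and 135.0 CPM in EV to 274.6, 354.1 and 326.6 CPM in the libraries labelled OE. The log2 fold change was 1.32 ± 0.217 (SE, limma adjusted p = 0.000766), and 0.96 after rescaling. PLK1 went from 71.9, 124.7 and 92.8 CPM to 185.5, 223.3 and 216.5 CPM, a log2 fold change of 1.13 ± 0.195 (SE, limma adjusted p = 0.000979) and of 0.77 after rescaling. In both genes every library labelled OE was above every EV library.

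NEK2, INCENP and TTK followed, with log2 fold changes of 0.97, 0.88 and 0.86 (limma adjusted p = 0.00418, 0.00302 and 0.00280), and these passed after rescaling too, at 0.61, 0.52 and 0.50. TTK was nearly equal in the libraries labelled OE, at 96.7, 97.5 and 97.9 CPM, against 42.5, 70.3 and 49.9 CPM in EV. BUB1B, AURKB and BUB1 rose by 0.65, 0.65 and 0.52 on the log2 scale (limma adjusted p = 0.0246, 0.0192 and 0.0204). After rescaling they were at 0.29, 0.28 and 0.16 and did not pass, nor did they by edgeR or DESeq2 on recovered reads. The call for these 3 genes was also lost without EV replicate 1 and without OE replicate 2, which left 5 of the 10 genes called.

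For AURKA and CDCA8 the groups overlapped and no call was made. AURKA was at 106.4, 166.2 and 83.0 CPM in EV and at 97.1, 118.9 and 102.9 CPM in the libraries labelled OE, and CDCA8 at 71.4, 118.3 and 86.0 CPM and at 95.2, 89.9 and 73.9 CPM. Without EV replicate 2, whose values were the highest, both lay above 0, at 0.17 and 0.13 on the log2 scale, and did not pass. With all libraries the log2 fold changes were -0.10 ± 0.234 and -0.07 ± 0.194 (SE; limma adjusted p = 0.717 and 0.778), and -0.46 and -0.43 after rescaling, where they did not pass either (limma adjusted p = 0.120 and 0.0721). Within the passenger complex, then, survivin and INCENP mRNA rose by 1.32 and 0.88 on the log2 scale while borealin mRNA was at -0.07, on the deposited scale. AURKA relative to AURKB was 1.71, 1.63 and 1.03 in EV and 0.792, 0.788 and 0.956 in the libraries labelled OE, a ratio that does not depend on the scaling (two-sided exact permutation test, p = 0.1, the floor for 3 against 3). BIRC5 relative to INCENP was 1.25, 1.34 and 1.52 in EV and 1.69, 1.96 and 1.91 in the libraries labelled OE (exact permutation test, two-sided, p = 0.1).

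EV replicate 2 held the highest value of its group for all 10 genes and EV replicate 1 the lowest for 9, and on average over the genes they were at 1.31 and 0.777 times the group's geometric mean. The coefficient of variation in EV was 22.0% to 36.2%. Mesenchymal markers were called lower in the libraries labelled OE for 7 of 7 genes, and their sum went from 6404 to 6998 CPM in EV to 406 to 854 CPM, with CD44, AXL and NT5E near 0. Their part in the members' change was not tested.

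Other lists did not follow the members evenly in this comparison. Over all 15265 genes tested, 7055 (46.2%) were called higher and 3579 lower, and the counts of each list have to be read against this. The share of partners called higher was near that of all genes. Of 25 partners tested, 11 were called higher, KIF20A the most, and 4 lower, of which CEP192, a centrosome scaffold that binds AURKA and PLK1, fell by 1.20 on the log2 scale (limma adjusted p = 0.00224). TPX2 was at -0.04 (limma adjusted p = 0.866). S phase genes gave 13 of 15 higher calls, with a median log2 fold change of 1.11 and the largest rise in the licensing factor CDT1 (2.50), and G2/M genes 4 higher and 1 lower of 14, with a median of 0.38, beside 0.37 for all genes. Of the G2/M genes HMMR rose the most, by 3.07 on the log2 scale, and ANLN fell by 1.56. Of the factors of mitotic transcription 7 of 10 were called higher, MYBL2 the most, by 2.69 on the log2 scale. Of 11 other Polo-like, Aurora and NEK kinases 5 were called higher and 4 lower, with the largest rise in NEK3, by 1.43 on the log2 scale, and the largest fall in PLK2, a stress-responsive relative of PLK1, which fell by 2.93.

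**Figure D4:**
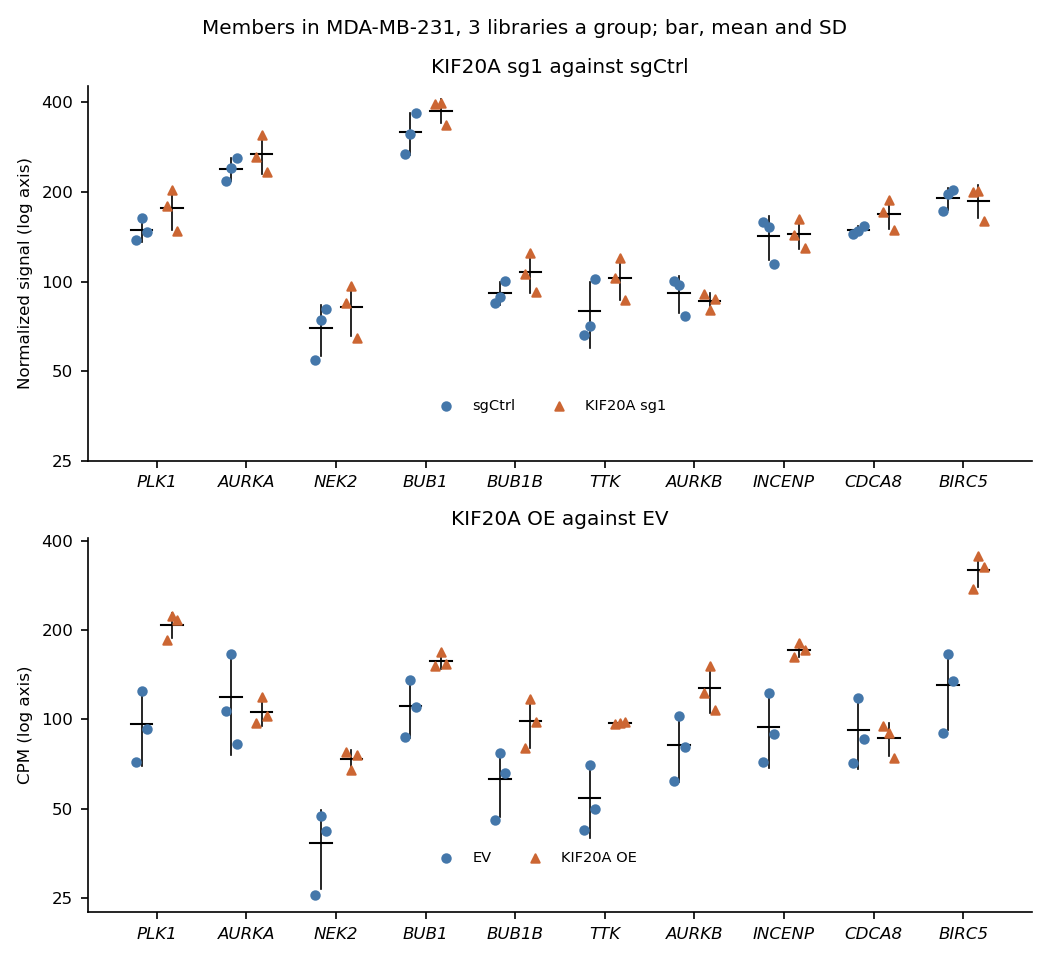
Levels of the 10 genes in each library labelled MDA-MB-231 on a log axis, in normalized units for KIF20A sg1 against sgCtrl (top) and in CPM for KIF20A OE against EV (bottom), with the mean and SD of 3 libraries as bars. The sgRNA groups overlap for every gene, and the groups labelled EV and OE overlap for AURKA and CDCA8 and are apart for the other 8.

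Set side by side, PLK1 had log2 fold changes of 0.41, 0.81, 0.23 and 1.13 in the 4 comparisons, in the order Hs578T, HCC70, KIF20A sgRNA and KIF20A OE. AURKA had 0.41, 0.77, 0.16 and -0.10, so it was among the most changed in both sorts and not called in the other comparisons. TTK had 0.26, 0.35, 0.38 and 0.86 and was called by limma in the last of these. BIRC5, at 0.23, 0.42, -0.03 and 1.32, was near the lower end in both sorts and highest in the libraries labelled OE. All of these values are on the deposited scale. The median of all genes on it was -0.01, 0.02, 0.002 and 0.37 in the same order. The sizes in the OE comparison therefore include a shift of scale, and they were lower after rescaling, as given above.

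**Figure D5:**
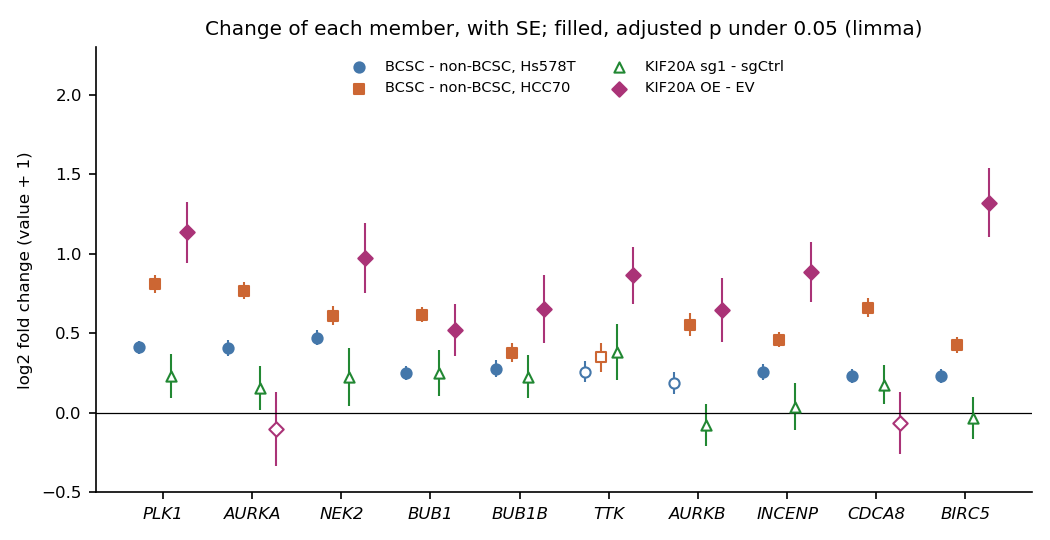
Log2 fold change of each gene with its SE in the 4 comparisons, on log2(value + 1) of the deposited scale, filled where the limma adjusted p was under 0.05. All 10 genes lie above 0 in both sorted lines, all symbols of the sgRNA comparison are open, and AURKA and CDCA8 lie at -0.10 and -0.07 in the OE comparison.

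Some of these genes share exons or have close copies, which may limit the precision of their values. The overlaps are those of GENCODE 44, which may differ from the annotation used in counting. In GENCODE 44, 611 of the 4760 exon bases of PLK1 lie opposite other genes, mostly a long noncoding RNA, and 457 of the 4463 exon bases of BUB1B are shared with PAK6 and the BUB1B-PAK6 read-through gene on the same strand. BUB1B-PAK6 was listed at 0 in the depletion table. AURKAP1, a processed copy of AURKA, was at 1.81 and 1.84 TPM in the 2 fractions of Hs578T and at 4.20 and 3.64 TPM in those of HCC70, where AURKA was at 36.4 and 62.7 TPM.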

How the data were processed

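Poly-A, stranded, paired-end RNA-Seq was made by the authors in biological triplicate. Per the labels' processing notes, GRCh38, HISAT2 2.0.5 and featureCounts 1.5.0-p3 were used, and the use of strand in counting is not given in the sources used here. TPM fill the deposited tables of both sorted lines, the deposited overexpression table holds CPM, and the depletion table holds a signal that the authors named CPM, reads divided by 1 factor per library. The unused sample columns numbered 0. Depth came from reads recovered from the steps of the values, whole within the rounding of the deposited digits for 100% of genes; on simulated TPM, 98.3% of 7982 genes were recovered exactly.

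Genes whose mean over 6 libraries reached 1 were tested with limma 3.58.1 (trend, two-sided, R 4.3.3) on log2(value + 1), so changes of low genes are understated, with Benjamini-Hochberg adjustment over all genes. An interaction was fitted over the 12 sorted libraries, where line is batch. The methods name DESeq2 on counts, so edgeR 4.0.16 and DESeq2 1.42.0 were run on recovered reads as alternatives (in the sorted lines a choice made after seeing the data), with a pseudocount of 0.1, other minimums, the median of ratios, a replicate block and each library left out. On simulated data with 200 genes changed by 1 on the log2 scale, limma called 188 in Hs578T, 189 in HCC70, 136 in the depletion and 96 in the overexpression, and 4.57%, 8.7%, 9.93% and 3.03% of all its calls were false, above the nominal 5% in HCC70 and the depletion. The simulated noise was drawn for each gene alone, while genes of the real libraries moved together. The overexpression comparison also called 10634 genes, far more than were changed here. These rates therefore need not hold for the real data. Exact permutation tests were two-sided. All 10 members are named, with KIF20A, TPX2 and, from the lists described in a comparison, the called genes with the largest rise and fall. Not every list was described in every comparison, and other names were chosen after their values were seen. The members and lists were chosen with earlier results of these data known. Gene models came from GENCODE 44 and promoters from RefSeq.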

Additional observations from a re-analysis of the deposited data

Results flagged for a closer look

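The BCSC effect of 4 genes differed between HCC70 and Hs578T by a test of the difference itself. It was larger in HCC70 by 0.40 for PLK1, 0.36 for AURKA, 0.37 for BUB1 and 0.43 for CDCA8 on the log2 scale (limma interaction, adjusted p = 0.00618, 0.0129, 0.00618 and 0.00603). Both lines moved up in 3 of 3 BCSC libraries for each of these genes. Line, batch and table cannot be told apart in this comparison.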

How the results depend on the processing

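No member was called lower under any setting. In Hs578T, 8 members were called higher, 3 to 8 with a library left out, 9 by the median of ratios, a minimum mean of 10 or edgeR, and 10 by DESeq2. Of all genes there, 386 of 13324 were called higher, and 144 to 387 with a library left out. By the median of ratios it was 620 of 13325, and with a minimum mean of 10 it was 383 of 9378. By edgeR and DESeq2 it was 813 and 737 of 13324. In HCC70, 9 were called, 5 to 9 with a library left out and 10 by edgeR or DESeq2. Of all genes of HCC70, 301 of 13218 were called higher, 441 by edgeR and 635 by DESeq2. With a library left out it was 22 to 202. In the overexpression experiment 8 were called, and 5 after the median of ratios, 5 by edgeR, 5 by DESeq2 and 5 to 8 with a library left out. Of all genes of that experiment, 7055 of 15265 were called higher, 5099 by edgeR and 5230 by DESeq2. After the median of ratios it was 5135 of 15202, and 6308 to 7049 with a library left out. The depletion gave 0 under every setting and the interaction 4, or 4 to 5 with a library left out. Replicate numbers did not pair the samples: deviations of same-numbered libraries correlated at -0.16 to 0.19. With the replicate number as a block, 3 members were called in Hs578T, and the block changed no other count of members; in the overexpression each library correlated best with its own number. Direction changed for 4 members when a library was left out, none of them called. In the depletion, INCENP ran from -0.106 without sgCtrl replicate 3, with -0.05 without sg1 replicate 2, to 0.126, and BIRC5 from -0.10 to 0.077 without sg1 replicate 3, with 0.02 without sgCtrl replicate 3. In the overexpression, AURKA ran from -0.33 and CDCA8 from -0.23 to 0.17 and 0.13 without EV replicate 2, with CDCA8 at 0.04 without OE replicate 3. The cause was not tested. Over all genes, calls in Hs578T went from 953 to 1646 by edgeR, and to 343 to 865 with a library left out. In HCC70 they went from 374 to 178 with no minimum, 233 by the median of ratios, 128 with the block, 715 by edgeR, 1167 by DESeq2 and 32 to 270 with a library left out. In the interaction they went from 830 to 302 with the block and 291 to 1225 with a library left out, and in the depletion from 0 to 11 by DESeq2 and 0 to 144 with a library left out.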

Other observations

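Between the libraries labelled OE and EV, 2 of 5 epithelial markers tested were called higher and 3 lower, with the largest rise in KRT17 (2.00) and the largest fall in EPCAM (-2.88) on the log2 scale. KIF20A ran from 269.4 to 1348 CPM among the libraries labelled OE. The coefficients of variation of the 10 genes there ran from 0.616% for TTK to 18.8% for BUB1B. OE replicate 2, the one with the lowest KIF20A, held the highest value of its group for 7 of the 10 genes. This is a single library, and a relation of the members to the level of KIF20A was not tested.

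In the depletion, 13 of 14 G2/M genes had a log2 fold change above 0 and 14 of 15 S phase genes one below 0, and 0 genes of either list passed limma.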
